A study of Oryza sativa with 8 samples.

Results

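The first leaf of rice was compared with the coleoptile in continuous white light across the 20978 loci, of 55801 in the deposited table, whose mean level over the 4 white light libraries was at least 1 FPKM. FPKM is the number of fragments of a transcript divided by its length in kilobases and by the total mapped in that library. The coleoptiles came from wild type seedlings of the cultivar Nipponbare aged 2 days and the first leaves from wild type Nipponbare seedlings aged 3 days, each with 2 libraries, so tissue and age cannot be told apart. All seedlings were germinated in water at 37 °C for 24 h and grown at 28 °C in continuous white light on agar or floating on water, and the labels do not say which support a sample had. The study also moved seedlings of both kinds to simulated shade for 1 h, with 2 libraries for each tissue. The 4 white light libraries are likewise labelled 1 h. Those 4 shade libraries served as a second set for the same tissue comparison. The labels do not state that replicates came from separate seedlings or cultures, and the spread behind each p-value is that between libraries and may be technical.

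The coleoptile is the closed sheath that covers the shoot of a germinating grass, lengthens by cell expansion and is then pierced by the first leaf. It is a short-lived organ. The first leaf grows from a zone of dividing cells at its base, and its cells build chloroplasts and take over photosynthesis as they move away from that zone. In whole organs, fewer cells of a type and less RNA per cell cannot be told apart.

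The 8 libraries summed to between 696059 and 808054 FPKM, and the read depth is not given in the files. Replicates correlated at 0.977 in the first leaf in white light but at 0.912 in the coleoptile in white light (log2 of FPKM plus 1, across loci), where 3234 loci lay over 2-fold apart against 506 in the first leaf. Coleoptile replicate 1 was over 2-fold above replicate 2 at 2537 of those loci. In a principal component analysis of the 4 libraries the first component, with 65.3% of the variance, separated the tissues and the second, with 28.0%, separated the 2 coleoptile libraries. The label of the leaf was checked against green tissue genes. All 21 loci annotated as chlorophyll A-B binding proteins or as small chains of ribulose bisphosphate carboxylase passed the minimum, and they made up 6.35% and 5.94% of the summed FPKM in the first leaf but also 2.06% and 3.21% in the coleoptile. On the mean of log2(FPKM + 1), 20 of the 21 were higher in the first leaf and 1, the small chain LOC_Os02g05830, in the coleoptile. These green tissue genes were thus abundant in both organs, and no defining marker of the coleoptile was available for a like check. Of 55 loci annotated as seed storage proteins or alpha-amylases, 38 were listed at 0 in all 4 libraries, and they summed to between 69.2 and 91.3 FPKM. Of 40 pollen and anther loci, 35 were listed at 0, with sums of 144 to 198 FPKM. The root silicon transporter Lsi2, LOC_Os03g01700, was listed at 0 in all 4 white light libraries, the root gene RCc3, LOC_Os02g44310, stood at 1.26, 1.53, 2.07 and 0.663 FPKM in coleoptile replicates 1 and 2 and first leaf replicates 1 and 2, and the root silicon channel Lsi1, LOC_Os02g51110, stood at 9.74, 4.35, 17.3 and 14.7 FPKM in the same order. The summed root markers ran from 5.88 to 10.99 FPKM in the coleoptile and from 15.3 to 19.3 FPKM in the first leaf. The 9 loci annotated as knotted homeobox genes summed to 331 and 199.7 FPKM in the coleoptile and 297 and 345 in the first leaf. None passed the test. The family includes genes that mark the shoot meristem, but which of the 9 do so was not checked. Most of the sum came from LOC_Os02g08544, LOC_Os03g03164, LOC_Os06g43860 and LOC_Os08g19650. LOC_Os03g51710 stood at only 0.946 and 1.14 FPKM in the coleoptile and 1.16 and 0.927 FPKM in the first leaf. The sum is thus no measure of meristem tissue. The part of such cells in the results was not tested.

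Differences were tested with limma on log2(FPKM + 1) over all 8 libraries, adjusted by the Benjamini-Hochberg method over all 20978 loci, and a locus was called at an adjusted p under 0.05. Of these loci, 2327 were called (11.1%), 1254 of them higher in the first leaf (5.98%) and 1073 higher in the coleoptile (5.11%). Counts of annotation classes are to be read beside these shares. The differences on the coleoptile side were the larger ones. The median size of a called difference was 1.45 on the log2 scale for first leaf loci and 1.67 for coleoptile loci, and differences of 16-fold or more numbered 24 in the first leaf against 77 in the coleoptile. At every called locus the 2 libraries of one tissue lay wholly above the 2 of the other, which was also the case at 49.5% of all loci tested, 26.4% with the first leaf higher and 23.1% with the coleoptile higher. The count depended on single libraries. Named calls that ended when 1 library was left out of the fit, each in turn, are given with the highest adjusted p over those fits. It was 3737 without coleoptile replicate 1, 4049 without coleoptile replicate 2, 718 without first leaf replicate 1, 794 without first leaf replicate 2, and 1538 or 1535 without shaded coleoptile replicate 1 or 2. The split turned in 2 of these fits, to 1773 higher in the leaf against 2276 in the coleoptile without coleoptile replicate 2, and to 339 against 379 without first leaf replicate 1. Counts of annotation classes moved as well. Of 130 such counts, by class and direction, 111 changed by over 1.5 times with some library left out. All 94 that fell so far were lowest without a white light first leaf library, and 68 of the 69 that rose so far were highest without a white light coleoptile library. Some of these extremes were ties with fits that left out other libraries, shaded ones among them. Of the loci called higher in the first leaf, 980 were also called without either coleoptile library in turn, and of those called higher in the coleoptile, 869.

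**Figure D1:**
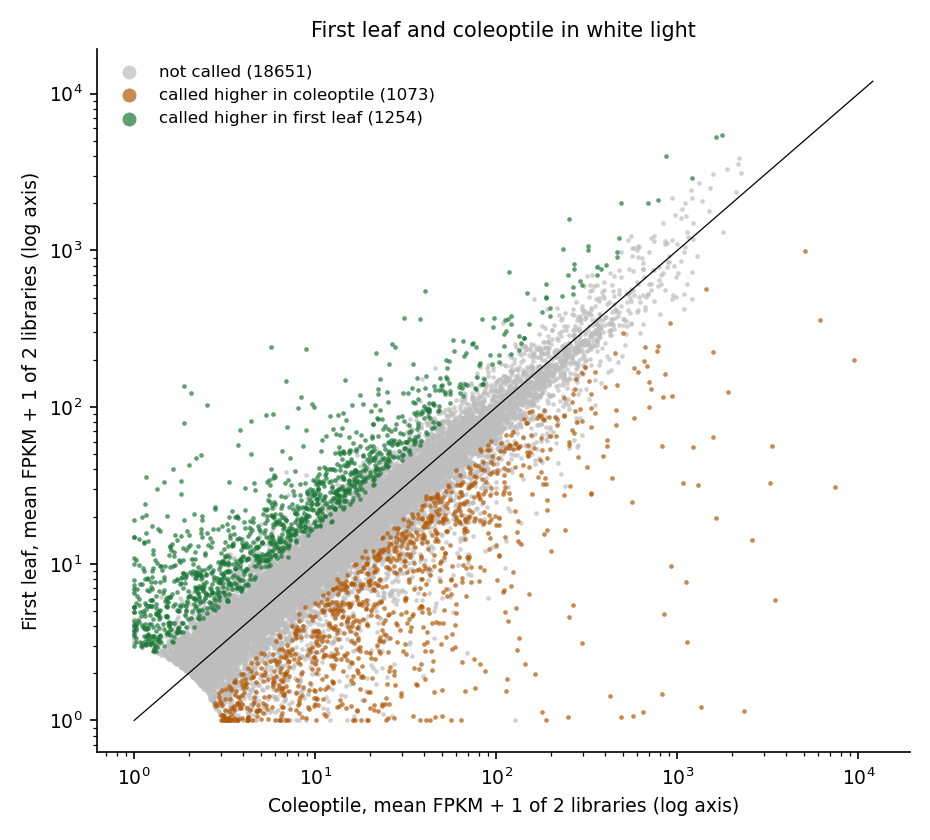
Mean FPKM plus 1 of the 2 white light libraries of the coleoptile (horizontal) and of the first leaf (vertical), both on log axes, for the 20978 loci tested. The 1254 loci called higher in the first leaf lie above the diagonal, and the 1073 called higher in the coleoptile lie below it, where points reach farther from the line.

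Among the loci that stood farthest above the first leaf in the coleoptile were genes for small secreted defence peptides and protease inhibitors. Others encoded a wall protein and a lipoxygenase, or were annotated only as a hydrolase or as an expressed protein. The leading locus was LOC_Os02g37490, a glycine-rich structural protein of the cell wall, at 1141 and 3541 FPKM in the coleoptile against 0 and 0.288 FPKM in the first leaf (log2 difference -10.79 ± 0.46, adjusted p = 6.02e-05; ± is the standard error, n = 2 libraries a group). It was present only as traces in the leaf. LOC_Os03g52860, a lipoxygenase, which adds oxygen to polyunsaturated fatty acids, stood at 575 and 1072 FPKM in the coleoptile against 0.5502 and 0.396 FPKM in the first leaf (log2 difference -9.06 ± 0.28, adjusted p = 1.08e-05). LOC_Os03g62060, annotated only as a hydrolase, reached 411 and 439 FPKM in the coleoptile against 0.628 and 0.243 FPKM in the first leaf (log2 difference -8.23 ± 0.18, adjusted p = 1.95e-06). At both loci neither leaf library reached 1 FPKM. LOC_Os12g36240, a protease inhibitor of the inhibitor I family, was the second most abundant locus of the coleoptile, at 7532 and 7317 FPKM in the coleoptile against 27.8 and 31.6 FPKM in the first leaf (log2 difference -7.92 ± 0.28, adjusted p = 2.41e-05), a 250.0-fold ratio of mean FPKM.

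Thionins, small cysteine-rich peptides that damage the membranes of microbes, formed the largest block among these. Of 48 loci annotated as thionins, 15 passed the minimum, and 10 of these were called, all higher in the coleoptile; a locus near 0 in one tissue could pass only through the other, so such counts describe the class and support nothing. THION7, LOC_Os06g32160, stood at 509 and 783 FPKM in the coleoptile against 0 and 0.256 FPKM in the first leaf (log2 difference -9.14 ± 0.23, adjusted p = 3.91e-06). THION3, LOC_Os06g31890, reached 459 and 681 FPKM in the coleoptile against 0 and 0.138 FPKM in the first leaf (log2 difference -9.04 ± 0.22, adjusted p = 3.35e-06). THION6, LOC_Os06g32020, stood at 477 and 498 FPKM in the coleoptile against 0.117 and 0 FPKM in the first leaf, a log2 difference of -8.85. In each of these 3 loci one leaf library was listed at 0 and the other was under 0.5 FPKM. THION2, LOC_Os06g31800, followed at 224 and 271 FPKM in the coleoptile against 0.113 and 0 FPKM in the first leaf (log2 difference -7.88 ± 0.17, adjusted p = 1.95e-06). Those 4 names, with THION5, THION9 and THION16, lie at neighbouring locus numbers on chromosome 6 and belong to a family of near-identical genes, so reads may have been split among them. The thionin-like peptide LOC_Os07g24830 was at 378 and 1885 FPKM in the coleoptile against 3.22 and 1.11 FPKM in the first leaf (log2 difference -8.15 ± 0.70, adjusted p = 0.000957). A second such locus, LOC_Os07g25050, the most abundant of the class, measured 1609 and 4897 FPKM in the coleoptile against 41.1 and 22.2 FPKM in the first leaf (log2 difference -6.49 ± 0.60, adjusted p = 0.00131). All thionin loci together took 0.519% and 1.16% of the summed FPKM in the coleoptile libraries, against 0.012% and 0.009% in the first leaf. Thionin counts with single libraries left out were 0 in the leaf and 10 to 12 in the coleoptile.

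Bowman-Birk inhibitors, which block trypsin-like proteases, showed the same direction, with 5 of the 9 that passed (12 in the table) called higher in the coleoptile and none higher in the leaf. BBTI5, LOC_Os01g03360, stood at 1543 and 3623 FPKM in the coleoptile against 6.87 and 19.5 FPKM in the first leaf (log2 difference -7.54 ± 0.53, adjusted p = 0.000426). BBTI4, LOC_Os01g03340, was more abundant, at 2165 and 4468 FPKM in the coleoptile against 35.4 and 76.2 FPKM in the first leaf (log2 difference -5.87 ± 0.44, adjusted p = 0.000578). The class took 0.669% and 1.09% of the summed FPKM in the coleoptile and 0.026% and 0.047% in the leaf, and its near-identical members are again uncertain one by one. Chitinases, which cut the chitin of fungal walls, split: CHIT5, LOC_Os05g33140, reached 124 and 102 FPKM in the coleoptile against 0.534 and 1.16 FPKM in the first leaf (log2 difference -5.96 ± 0.36, adjusted p = 0.000232), whereas CHIT2, LOC_Os04g41620, was at 43.8 and 48.4 FPKM in the first leaf against 1.79 and 0.606 FPKM in the coleoptile (log2 difference 4.47 ± 0.31, adjusted p = 0.000378). Of 14 chitinases that passed (19 in the table), 3 were called higher in the leaf and 2 in the coleoptile. The wider list of protease inhibitors and pathogenesis-related proteins, which holds these inhibitors and chitinases, had 13 loci called higher in the first leaf and 16 higher in the coleoptile among 63 that passed. Thaumatin-like LOC_Os12g43380 was among the former, at 15.2 and 17.4 FPKM in the first leaf against 0.511 and 2.09e-05 FPKM in the coleoptile (log2 difference 3.81 ± 0.58, adjusted p = 0.00762). Bowman-Birk inhibitor counts with single libraries left out were 0 in the leaf and 3 to 7 in the coleoptile, those of chitinases 3 to 4 and 2 to 3 and those of the wider list 9 to 16 and 6 to 20. LOC_Os12g43380 was not called without either white light first leaf library (adjusted p = 0.0579).

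**Figure D2:**
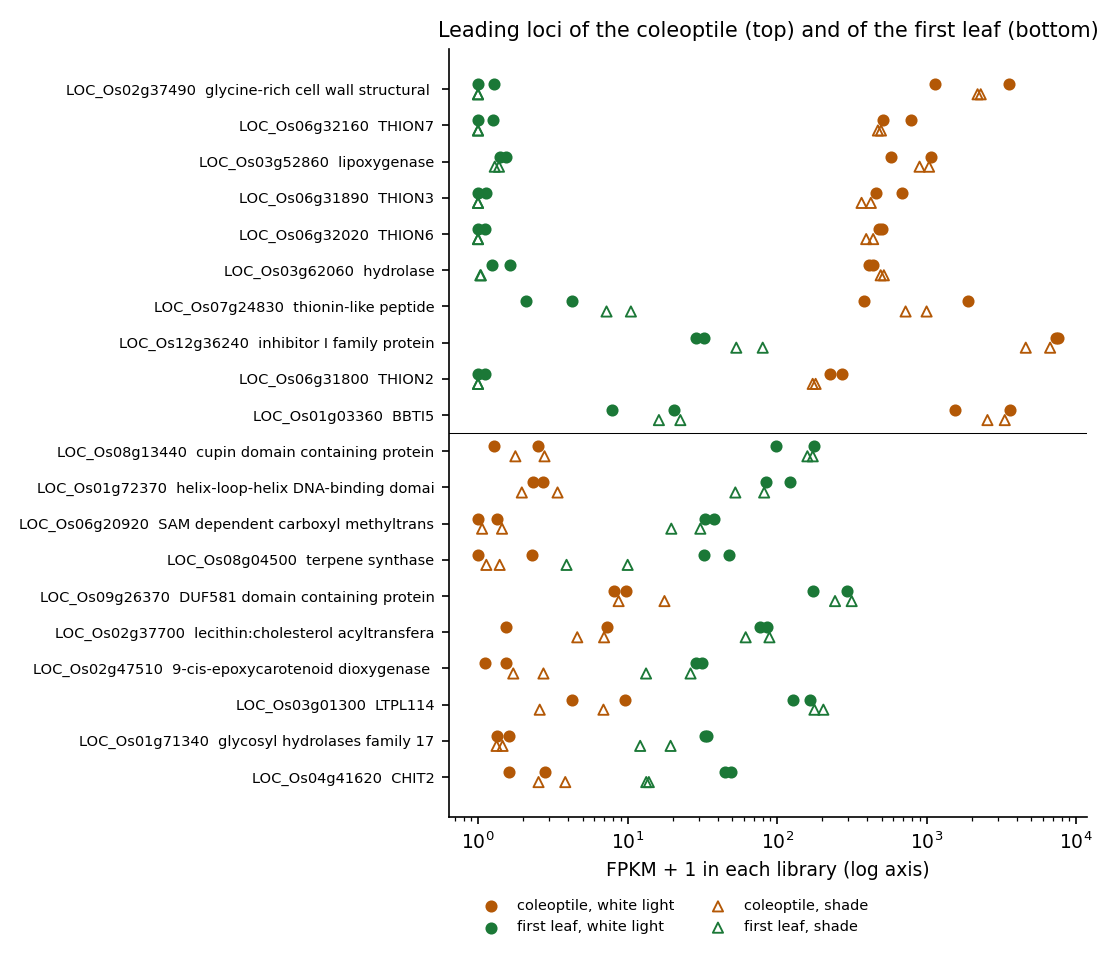
FPKM plus 1 (log axis) in each of the 8 libraries for the 10 function-named loci with the largest called differences toward the coleoptile (upper block) and the 10 toward the first leaf (lower block). Circles are white light, triangles shade, 2 libraries each; at every locus the coleoptile and leaf circles do not overlap, and the triangles lie on the same sides.

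On the first leaf side the leading locus was LOC_Os08g13440, which encodes a protein with a cupin fold, at 174 and 96.98 FPKM in the first leaf against 0.2703 and 1.51 FPKM in the coleoptile (log2 difference 6.198 ± 0.41, adjusted p = 0.000297). LOC_Os01g72370, a helix-loop-helix DNA-binding protein, followed at 120.1 and 83.4 FPKM in the first leaf against 1.33 and 1.73 FPKM in the coleoptile (log2 difference 5.33 ± 0.34, adjusted p = 0.000262). In both, the coleoptile libraries stayed under 2 FPKM. LOC_Os06g20920, a methyltransferase that acts on carboxyl groups of small acids, stood at 37.1 and 32.1 FPKM in the first leaf against 0.338 and 0 FPKM in the coleoptile (log2 difference 4.94 ± 0.29, adjusted p = 0.000202). LOC_Os02g47510, a 9-cis-epoxycarotenoid dioxygenase, the enzyme class that cleaves carotenoids in the limiting step of abscisic acid synthesis, reached 30.5 and 27.8 FPKM in the first leaf against 0.544 and 0.121 FPKM in the coleoptile (log2 difference 4.52 ± 0.38, adjusted p = 0.000855). It was under 1 FPKM in both coleoptile libraries. LOC_Os02g37700, a lecithin:cholesterol acyltransferase-type enzyme, was at 83.96 and 76.4 FPKM in the first leaf against 6.28 and 0.548 FPKM in the coleoptile (log2 difference 4.59 ± 0.64, adjusted p = 0.00543); its 2 coleoptile libraries were far apart. LOC_Os09g26370, a DUF581 domain protein, was at 293 and 174 FPKM in the first leaf against 7.103 and 8.696 FPKM in the coleoptile (log2 difference 4.68 ± 0.38, adjusted p = 0.000741). The 1,3-glucanase-type hydrolase of family 17 LOC_Os01g71340 was at 33.04 and 31.8 FPKM in the first leaf against 0.5996 and 0.334 FPKM in the coleoptile (log2 difference 4.52 ± 0.26, adjusted p = 0.000169). Family 17 as a whole had 8 of 27 loci that passed (36 in the table) called higher in the leaf and 4 in the coleoptile. The farthest of the latter was LOC_Os01g71830, which stood at 104 and 121 FPKM in the coleoptile against 0.578 and 0.502 FPKM in the first leaf, a log2 difference of -6.201. Family 17 counts with single libraries left out were 3 to 11 in the leaf and 2 to 8 in the coleoptile.

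Terpene synthases, which make the scaffolds of volatile and defensive terpenes, had 7 of 45 loci above the minimum. Of these 7, 4 were called, all higher in the first leaf, where the share over all loci was 5.98%. As for thionins, a locus near 0 in the coleoptile could pass the minimum only through the leaf. The count and its direction therefore describe the class and support nothing. LOC_Os08g04500 stood at 46.97 and 31.4 FPKM in the first leaf against 1.28 and 0 FPKM in the coleoptile (log2 difference 4.71 ± 0.53, adjusted p = 0.00261). LOC_Os03g22634 reached 11.5 and 27.6 FPKM in the first leaf against 0.313 and 0 FPKM in the coleoptile (log2 difference 4.05 ± 0.68, adjusted p = 0.0114), with its 2 leaf libraries over 2-fold apart. In shade, LOC_Os08g04500 was at 0.396 and 0.137 FPKM in the shaded coleoptile and 2.91 and 9.01 FPKM in the shaded first leaf. LOC_Os03g22634 was at 0.02998 and 0.0345 FPKM in the shaded coleoptile and 0.525 and 5.78 FPKM in the shaded first leaf. Every shaded leaf value of the pair lay below the white light leaf values of the same locus, a difference that was not tested here. Terpene synthase counts with single libraries left out were 3 to 5 in the leaf and 0 in the coleoptile. LOC_Os03g22634 was not called without white light first leaf replicate 2 (adjusted p = 0.0824).

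The most abundant transcripts of the organs differed. The 5 highest loci of the coleoptile were the jacalin-like lectin LOC_Os01g24710, the inhibitor LOC_Os12g36240, the BURP domain protein LOC_Os05g12640, the T2-type ribonuclease LOC_Os09g36700 and LOC_Os11g10590, annotated only as an expressed protein. Together they took 3.51% and 4.43% of the summed FPKM of the coleoptile libraries and 0.157% and 0.282% of the leaf libraries. The lectin, a sugar-binding protein, stood at 8099 and 10772 FPKM in the coleoptile against 195 and 205 FPKM in the first leaf (log2 difference -5.54 ± 0.27, adjusted p = 9.13e-05). The BURP protein, of a plant family of secreted wall proteins, reached 6401 and 5793 FPKM in the coleoptile against 309 and 412 FPKM in the first leaf (log2 difference -4.09 ± 0.34, adjusted p = 0.000807). Neither was absent from the leaf, and neither overlapped between the organs. The ribonuclease was at 3873 and 6275 FPKM in the coleoptile against 603 and 1386 FPKM in the first leaf (log2 difference -2.43 ± 0.49, adjusted p = 0.0218). LOC_Os11g10590 stood at 1318 and 5605 FPKM in the coleoptile against 5.21 and 4.57 FPKM in the first leaf, a log2 difference of -8.85. The 5 highest loci of the first leaf were the small chains of ribulose bisphosphate carboxylase LOC_Os12g19381 and LOC_Os12g17600 and the chlorophyll A-B binding proteins LOC_Os01g41710, LOC_Os09g17740 and LOC_Os03g39610. These 5 took 3.07% and 3.04% of the leaf libraries and still 0.933% and 1.23% of the coleoptile libraries. LOC_Os09g36700 was not called without white light first leaf replicate 1 (adjusted p = 0.149). LOC_Os12g19381 and LOC_Os01g41710 were not called without white light coleoptile replicate 1 or either white light first leaf library (highest adjusted p = 0.169). LOC_Os12g17600 was not called without either white light first leaf library (adjusted p = 0.0687).

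Every light-harvesting, photosystem, Calvin cycle and photorespiration locus called with all 8 libraries was higher in the first leaf. Of the 17 light-harvesting chlorophyll A-B binding proteins, which gather light for both photosystems, 17 had a positive difference but only 4 were called, with a median of 0.91 on the log2 scale against 0.02 over all loci (0.63 without coleoptile replicate 1 and 1.25 without replicate 2). LOC_Os01g41710 stood at 5703 and 4870.2 FPKM in the first leaf against 1312 and 1964 FPKM in the coleoptile (log2 difference 1.71 ± 0.36, adjusted p = 0.0242). LOC_Os02g10390 reached 1267 and 1116 FPKM in the first leaf against 342 and 610.2 FPKM in the coleoptile (log2 difference 1.38 ± 0.33, adjusted p = 0.0393). LOC_Os09g17740, which was not called, stood at 1880.5 and 2489.9 FPKM in the coleoptile and 3844 and 3941 FPKM in the first leaf, a log2 difference of 0.85. In each of the 3 the leaf libraries lay above the coleoptile libraries, and coleoptile replicate 1 was the lowest of the 4. Light-harvesting loci took 4.85% and 4.35% of the summed FPKM in the leaf and 1.60% and 2.70% in the coleoptile. The count of 4 ran from 0 (without either white light first leaf library) to 9 (without white light coleoptile replicate 2) when single libraries were left out. Of 46 photosystem and electron transport loci that passed (47 in the table), 4 (8.70%, near the 5.98% of all loci) were called higher in the leaf, with a median of 0.53 (0.18 without coleoptile replicate 1 and 0.83 without replicate 2). The ferredoxin-NADP reductase LOC_Os06g01850, which passes electrons from ferredoxin to NADP, was at 507 and 491 FPKM in the first leaf against 158 and 217 FPKM in the coleoptile (log2 difference 1.42 ± 0.26, adjusted p = 0.0145). A photosystem II 10 kDa polypeptide, LOC_Os07g05360, measured 338 and 102 FPKM in the first leaf against 6.52 and 34.6 FPKM in the coleoptile (log2 difference 3.52 ± 0.76, adjusted p = 0.0276), with wide gaps between replicates in both organs. The count for this class ran from 1 (without white light first leaf replicate 1) to 16 (without white light coleoptile replicate 2) when single libraries were left out. Without either white light coleoptile library 1 locus of it was called higher in the coleoptile. LOC_Os01g41710 was not called without white light coleoptile replicate 1 or either white light first leaf library (adjusted p = 0.169). LOC_Os02g10390 was not called without any 1 library other than white light coleoptile replicate 2 (adjusted p = 0.205). LOC_Os06g01850 was not called without either white light first leaf library (adjusted p = 0.0985). LOC_Os07g05360 was not called without either shaded coleoptile library, either shaded first leaf library or white light first leaf replicate 1 (adjusted p = 0.154).

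Carbon fixation by the Calvin cycle turns carbon dioxide into sugar phosphates. Of 13 Calvin cycle loci that passed (14 in the table), 7 were called higher in the leaf and none in the coleoptile, with a median of 1.11 (0.75 without coleoptile replicate 1 and 1.36 without replicate 2). The small chain of ribulose bisphosphate carboxylase LOC_Os12g17600 stood at 3758 and 4224 FPKM in the first leaf against 893 and 827 FPKM in the coleoptile (log2 difference 2.21 ± 0.33, adjusted p = 0.007203). Its near copy LOC_Os12g19381 reached 5191 and 5623 FPKM in the first leaf against 1655 and 1854 FPKM in the coleoptile (log2 difference 1.62 ± 0.31, adjusted p = 0.0181), and shared reads make the split between the copies uncertain. A fructose-1,6-bisphosphatase, LOC_Os01g64660, was at 293 and 229 FPKM in the first leaf against 69.9 and 59.2 FPKM in the coleoptile (log2 difference 1.99 ± 0.25, adjusted p = 0.003505). The phosphoribulokinase LOC_Os02g47020, which remakes the acceptor of carbon dioxide, measured 717 and 664 FPKM in the first leaf against 199.8 and 297 FPKM in the coleoptile (log2 difference 1.499 ± 0.28, adjusted p = 0.0158). In these 4 loci both leaf libraries lay above both coleoptile libraries. Of the 13 loci, 9 had a positive and 4 a negative difference. Another small chain, LOC_Os02g05830, had the lowest, -1.17, and was not called. It stood at 155 and 408 FPKM in the coleoptile and 170 and 72.3 FPKM in the first leaf. In shade it was at 335 and 269 FPKM in the coleoptile and 152 and 98.7 FPKM in the first leaf. The count of 7 ran from 1 (without either white light first leaf library) to 8 (without white light coleoptile replicate 2) when single libraries were left out. Without coleoptile replicate 1, 1 locus was called higher in the coleoptile. LOC_Os12g17600 and LOC_Os02g47020 were not called without either white light first leaf library (highest adjusted p = 0.108). LOC_Os12g19381 was not called without white light coleoptile replicate 1 or either white light first leaf library (adjusted p = 0.145).

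Photorespiration, which recycles the product that forms when the carboxylase takes oxygen, followed the same direction, with 6 of 17 loci called higher in the leaf and a median of 0.61 (0.82 without coleoptile replicate 1 and 0.501 without replicate 2). A glycine dehydrogenase of the glycine cleavage complex, LOC_Os06g40940, stood at 297 and 316 FPKM in the first leaf against 119 and 105 FPKM in the coleoptile (log2 difference 1.45 ± 0.23, adjusted p = 0.00941). Serine hydroxymethyltransferase LOC_Os03g52840, its partner enzyme in mitochondria, reached 666 and 603 FPKM in the first leaf against 272 and 307 FPKM in the coleoptile (log2 difference 1.13 ± 0.23, adjusted p = 0.0229). The glycine cleavage H protein LOC_Os10g37180 stood at 924 and 894 FPKM in the first leaf against 426 and 499 FPKM in the coleoptile, a log2 difference of 0.98. The leaf libraries lay above the coleoptile libraries at all 3. The count of 6 ran from 0 (without either white light first leaf library) to 6 (without white light coleoptile replicate 2) when single libraries were left out. None of the 16 chlorophyll synthesis enzymes above the minimum (18 in the table) was called, 1 had an unadjusted limma p under 0.05, and the median was -0.07 (-0.24 without coleoptile replicate 1 and 0.15 without replicate 2). The most abundant, the cyclase subunit LOC_Os01g17170, stood at 259.8 and 635 FPKM in the coleoptile and 434 and 469 FPKM in the first leaf and overlapped between the organs (log2 difference 0.15 ± 0.39, adjusted p = 0.861). Proteins encoded by the plastid genome but listed at nuclear loci, which cannot be told from their plastid copies, had 8 of 55 loci above the minimum and none called (2 at an unadjusted p under 0.05). LOC_Os06g40940 was not called without either white light first leaf library (adjusted p = 0.0751). LOC_Os03g52840 was not called without either shaded coleoptile library or either white light first leaf library (adjusted p = 0.151). LOC_Os10g37180 was not called without any 1 library other than white light coleoptile replicate 2 (adjusted p = 0.186).

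**Figure D3:**
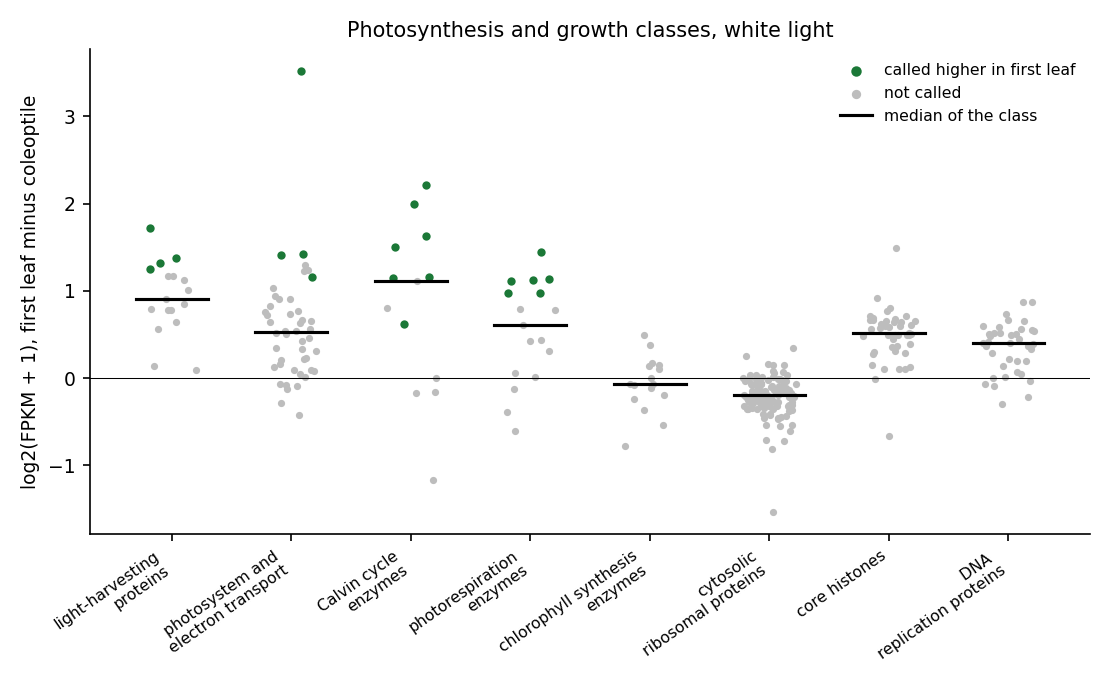
Log2(FPKM + 1) difference, first leaf minus coleoptile in white light, of each member above 1 FPKM in 8 annotation classes; green points were called higher in the first leaf, grey points were not called and black bars are class medians. Light-harvesting, Calvin cycle and photorespiration loci sit mostly above 0, while chlorophyll synthesis enzymes centre on -0.07 and cytosolic ribosomal proteins on -0.20, which became 0.08 without coleoptile replicate 1 and -0.48 without replicate 2.

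Most called starch genes were higher in the leaf. The large subunit of glucose-1-phosphate adenylyltransferase LOC_Os03g52460, which makes the sugar donor for starch, stood at 105 and 109 FPKM in the first leaf against 27.6 and 20.97 FPKM in the coleoptile (log2 difference 2.103 ± 0.22, adjusted p = 0.00191). A starch synthase, LOC_Os07g22930, reached 88.2 and 56.1 FPKM in the first leaf against 14.8 and 11.2 FPKM in the coleoptile (log2 difference 2.36 ± 0.25, adjusted p = 0.00204). A beta-amylase, LOC_Os03g04770, which breaks starch down, was on the other side, at 371 and 154 FPKM in the coleoptile against 78.3 and 61.97 FPKM in the first leaf (log2 difference -1.76 ± 0.44, adjusted p = 0.0452). These 3 were among 4 loci called higher in the leaf and 1 in the coleoptile of 25 that passed (39 in the table). Those shares were 16.0% and 4.0%, beside 5.98% and 5.11% over all loci. The malate dehydrogenase-type locus LOC_Os03g56280 was at 344 and 304 FPKM in the first leaf against 92.9 and 96.996 FPKM in the coleoptile (log2 difference 1.76 ± 0.25, adjusted p = 0.006001). Starch enzyme counts with single libraries left out were 2 to 5 in the leaf and 0 to 3 in the coleoptile. LOC_Os03g04770 was not called without any 1 library other than white light coleoptile replicate 2 (adjusted p = 0.227). LOC_Os03g56280 was not called without white light first leaf replicate 1 (adjusted p = 0.0558).

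No ribosomal protein, histone or DNA replication locus passed the test. None of 125 cytosolic ribosomal proteins that passed (136 in the table) was called by limma, 4 had an unadjusted p under 0.05, and 111 had a negative difference, with a median of -0.20. In white light that direction rested on 1 library, since the median was 0.08 without coleoptile replicate 1 and -0.48 without replicate 2. The class took 3.53% and 2.26% of the summed FPKM in the coleoptile and 2.90% and 2.50% in the leaf, which overlap. In the shade libraries the median of the ribosomal proteins was -0.29, with none called. Core histones, which package new DNA, had a median of 0.51 with 42 of 44 positive (57 in the table), none called and 4 at an unadjusted p under 0.05. DNA replication proteins had a median of 0.40 over 38 loci (42 in the table), none called and 2 at an unadjusted p under 0.05. Coleoptile replicate 1 stood over 2-fold above replicate 2 at 21 of the 44 histones and at 21 of the 38 replication loci. The histone median was 0.92 without coleoptile replicate 1 and -0.05 without replicate 2, and that of replication loci 0.86 without coleoptile replicate 1 and -0.15 without replicate 2, so neither direction held without replicate 2. In shade the medians were 0.12 and -0.04. Without replicate 1, 3 histones and 9 replication loci were called higher in the leaf, and without replicate 2, 2 and 0. Over all loci those fits called 9.65% and 8.45% higher in the leaf, and 8.16% and 10.8% higher in the coleoptile. The histone H3 locus LOC_Os03g27310, the most abundant, stood at 608 and 687 FPKM in the coleoptile and 842 and 825 FPKM in the first leaf (log2 difference 0.37 ± 0.20, adjusted p = 0.3296). Of 69 kinesins and tubulins that passed (75 in the table), which build and use microtubules, 3 (4.35%, below the 5.98% of all loci) were called, higher in the leaf, and without coleoptile replicate 1 the counts were 12 in the leaf and 4 in the coleoptile. The kinesin LOC_Os08g43400 reached 61.6 and 82.2 FPKM in the first leaf against 24.9 and 20.2 FPKM in the coleoptile (log2 difference 1.62 ± 0.21, adjusted p = 0.00388). The kinesin LOC_Os04g53760 stood at 62.3 and 62.1 FPKM in the first leaf against 25.6 and 13.3 FPKM in the coleoptile, a log2 difference of 1.69. Cyclins drive the cell cycle. Among 42 that passed (60 in the table), 2 (4.76%) were called higher in the leaf and 1 (2.38%) in the coleoptile. Both shares were under those of all loci, 5.98% and 5.11%. The coleoptile one, LOC_Os03g10650, stood at 42.6 and 36.8 FPKM in the coleoptile against 25.1 and 24.3 FPKM in the first leaf, a log2 difference of -0.66. Kinesin and tubulin counts with single libraries left out were 1 to 12 in the leaf and 0 to 4 in the coleoptile, and those of cyclins 0 to 5 and 0 to 2. LOC_Os04g53760 was not called without either white light first leaf library (adjusted p = 0.0755). LOC_Os03g10650 was not called without any 1 library other than white light coleoptile replicate 2 (adjusted p = 0.194).

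Wall-loosening genes split between the organs by family member. Expansins, which loosen the wall without cutting it, had 4 loci called higher in the leaf and 6 higher in the coleoptile among 30 that passed (63 in the table). LOC_Os10g40700 stood at 507 and 1628 FPKM in the coleoptile against 29.02 and 34.7 FPKM in the first leaf (log2 difference -4.796 ± 0.48, adjusted p = 0.00164). Its neighbour LOC_Os10g40720, the most abundant expansin, reached 772 and 2371 FPKM in the coleoptile against 223 and 221 FPKM in the first leaf (log2 difference -2.602 ± 0.47, adjusted p = 0.0148). LOC_Os05g39990 stood at 281 and 1355 FPKM in the coleoptile against 51.8 and 58.7 FPKM in the first leaf, a log2 difference of -3.46. At all 3 the lower coleoptile library, replicate 1, was still above both leaf libraries, though 3 to 5 times below replicate 2. On the leaf side the beta-expansin LOC_Os09g29710 was at 7.07 and 6.99 FPKM in the first leaf against 0.123 and 0.274 FPKM in the coleoptile (log2 difference 2.75 ± 0.34, adjusted p = 0.00362). LOC_Os03g01270 stood at 43.1 and 30.1 FPKM in the first leaf against 8.45 and 10.5 FPKM in the coleoptile, a log2 difference of 1.82. Expansins together took 0.338% and 0.942% of the summed FPKM in the coleoptile and 0.131% and 0.143% in the leaf. Expansin counts with single libraries left out were 1 to 4 in the leaf and 2 to 9 in the coleoptile. LOC_Os10g40720 and LOC_Os05g39990 were not called without either white light first leaf library (highest adjusted p = 0.102). LOC_Os03g01270 was not called without white light first leaf replicate 1 (adjusted p = 0.102).

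Hydrolases of family 16, which cut and rejoin xyloglucan, had 3 loci called higher in the leaf and 5 higher in the coleoptile of 21 that passed (30 in the table). LOC_Os10g39840 stood at 82.1 and 21.7 FPKM in the coleoptile against 6.01 and 5.78 FPKM in the first leaf (log2 difference -2.66 ± 0.55, adjusted p = 0.0236). LOC_Os06g48180, on the leaf side, stood at 33.03 and 46.6 FPKM in the first leaf against 12.9 and 6.06 FPKM in the coleoptile, a log2 difference of 2.03. The most abundant member, LOC_Os08g13920, overlapped between the organs, at 725 and 384 FPKM in the coleoptile and 418 and 534 FPKM in the first leaf (log2 difference -0.16 ± 0.34, adjusted p = 0.8302). Cellulose synthase and related genes had 1 locus called higher in the leaf and 3 in the coleoptile of 31 (47 in the table). Those shares were 3.23%, under the 5.98% of all loci, and 9.68%, beside 5.11%. The mannan synthase-type gene CSLA1, LOC_Os02g09930, reached 153 and 199 FPKM in the coleoptile against 36.5 and 38.1 FPKM in the first leaf (log2 difference -2.19 ± 0.26, adjusted p = 0.00304). CSLA3, LOC_Os06g12460, on the leaf side, stood at 5.95 and 9.62 FPKM in the first leaf against 2.21 and 1.13 FPKM in the coleoptile, a log2 difference of 1.72. CESA1, LOC_Os05g08370, a subunit of the cellulose synthase of the primary wall, lay at 347 and 360.1 FPKM in the coleoptile and 328 and 361 FPKM in the first leaf (log2 difference -0.04 ± 0.18, adjusted p = 0.9296). Its values overlapped between the organs. Of 56 pectin enzymes that passed (109 in the table), 5 were called higher in the leaf and 3 in the coleoptile. Those shares were 8.93% and 5.36%, beside 5.98% and 5.11% over all loci. The pectinesterase LOC_Os08g34910, which removes methyl groups from pectin, was at 11.7 and 6.38 FPKM in the coleoptile against 0.898 and 1.099 FPKM in the first leaf (log2 difference -2.28 ± 0.28, adjusted p = 0.00349). The polygalacturonase LOC_Os01g66710, which cuts pectin, was listed at 0 in both coleoptile libraries and stood at 3.11 and 2.29 FPKM in the leaf (log2 difference 1.88 ± 0.26, adjusted p = 0.005204). Family 16 counts with single libraries left out were 0 to 7 in the leaf and 0 to 6 in the coleoptile, those of the cellulose synthase family 0 to 7 and 1 to 6 and those of pectin enzymes 1 to 9 and 1 to 7. LOC_Os10g39840 was not called without either shaded coleoptile library or either white light first leaf library (adjusted p = 0.123). LOC_Os06g48180 was not called without either shaded first leaf library or either white light first leaf library (adjusted p = 0.153). LOC_Os06g12460 was not called without white light first leaf replicate 2 (adjusted p = 0.0973). LOC_Os01g66710 was not called without white light first leaf replicate 1 (adjusted p = 0.0512).

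Among the 48 arabinogalactan, fasciclin and extensin-type wall proteins that passed (88 in the table), 6 were called higher in the leaf and 4 in the coleoptile. The fasciclin domain protein LOC_Os02g20560 stood at 83.5 and 98.99 FPKM in the first leaf against 17.6 and 8.77 FPKM in the coleoptile (log2 difference 2.77 ± 0.37, adjusted p = 0.0047001). The extensin-type protein POEI17, LOC_Os10g13850, stood at 26.4 and 44.3 FPKM in the coleoptile against 5.605 and 10.6 FPKM in the first leaf, a log2 difference of -2.01. Secreted peroxidases, which cross-link wall polymers, had 9 loci called higher in the leaf and 16 in the coleoptile of 78 that passed (140 in the table). LOC_Os03g32050 reached 42.9 and 53.7 FPKM in the coleoptile against 1.55 and 2.57 FPKM in the first leaf (log2 difference -4.02 ± 0.25, adjusted p = 0.000237). LOC_Os04g59190 was more abundant, at 144 and 523 FPKM in the coleoptile against 29.2 and 25.001 FPKM in the first leaf (log2 difference -3.299 ± 0.52, adjusted p = 0.00899). LOC_Os07g48020, on the leaf side, stood at 62.1 and 35.4 FPKM in the first leaf against 0.612 and 2.05 FPKM in the coleoptile, a log2 difference of 4.43. None of the 3 overlapped between the organs. Enzymes of lignin and other phenylpropanoids, with 11 called higher in the leaf and 7 in the coleoptile of 60 (109 in the table), included a pair of dirigent proteins on the coleoptile side, which guide the coupling of phenolic radicals. The dirigent protein LOC_Os03g59440 was at 10.95 and 20.4 FPKM in the coleoptile and listed at 0 in both leaf libraries (log2 difference -3.998 ± 0.32, adjusted p = 0.000705). LOC_Os07g44930 stood at 12.9 and 18.9 FPKM in the coleoptile against 0.327 and 0 FPKM in the first leaf, a log2 difference of -3.85. A cinnamoyl-CoA reductase, LOC_Os09g25150, an enzyme class of lignin synthesis, was at 125 and 82.02 FPKM in the first leaf against 12.9 and 4.33 FPKM in the coleoptile (log2 difference 3.57 ± 0.44, adjusted p = 0.00347). Arabinogalactan, fasciclin and extensin counts with single libraries left out were 1 to 10 in the leaf and 0 to 4 in the coleoptile, those of peroxidases 5 to 16 and 5 to 24 and those of lignin and phenylpropanoid enzymes 4 to 18 and 3 to 14. LOC_Os10g13850 was not called without shaded first leaf replicate 2, white light coleoptile replicate 2 or either white light first leaf library (adjusted p = 0.156). LOC_Os04g59190 was not called without either white light first leaf library (adjusted p = 0.0674).

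The families that build the plant surface had members called on both sides. Enzymes annotated for waxes, cutin and GDSL-type lipases had 11 loci called higher in the leaf and 20 in the coleoptile of 106 that passed (147 in the table). The GDSL-type lipase LOC_Os01g11730 stood at 807 and 1789 FPKM in the coleoptile against 47.2 and 14.7 FPKM in the first leaf (log2 difference -5.45 ± 0.54, adjusted p = 0.00164). LOC_Os10g25340 stood at 23.1 and 17.2 FPKM in the coleoptile against 0.205 and 0.317 FPKM in the first leaf, a log2 difference of -4.06. On the leaf side the GDSL-type lipase LOC_Os01g46169 reached 38.03 and 28.1 FPKM in the first leaf against 4.63 and 4.52 FPKM in the coleoptile (log2 difference 2.595 ± 0.21, adjusted p = 0.000732). A 3-ketoacyl-CoA synthase, LOC_Os06g15170, which lengthens the fatty acids of wax, was at 7.47 and 7.85 FPKM in the first leaf against 1.61 and 0.262 FPKM in the coleoptile (log2 difference 2.25 ± 0.39, adjusted p = 0.0123). Lipid transfer proteins, secreted carriers of lipids, leaned the other way, with 14 loci called higher in the leaf and 8 in the coleoptile of 82 (161 in the table). LTPL114, LOC_Os03g01300, measured 126 and 166 FPKM in the first leaf against 8.55 and 3.22 FPKM in the coleoptile (log2 difference 4.52 ± 0.52, adjusted p = 0.00267). LTPL110, LOC_Os12g28880, stood at 60.5 and 80.7 FPKM in the first leaf against 4.86 and 0.833 FPKM in the coleoptile, a log2 difference of 4.43. LTPL143, LOC_Os10g40480, was on the coleoptile side, at 154 and 99.9 FPKM in the coleoptile against 4.41 and 3.96 FPKM in the first leaf (log2 difference -4.59 ± 0.40, adjusted p = 0.00101), as was LTPL139, LOC_Os10g40430, at 70.1 and 233 FPKM in the coleoptile against 5.18 and 5.68 FPKM in the first leaf (log2 difference -4.33 ± 0.48, adjusted p = 0.00244). The most abundant member, LTPL9, LOC_Os11g02424, overlapped, at 892 and 1319 FPKM in the coleoptile and 1009 and 1103 FPKM in the first leaf (log2 difference -0.04 ± 0.31, adjusted p = 0.956). Wax, cutin and GDSL lipase counts with single libraries left out were 3 to 14 in the leaf and 9 to 30 in the coleoptile, and those of lipid transfer proteins 6 to 20 and 4 to 9. LOC_Os06g15170 was not called without either white light first leaf library (adjusted p = 0.0818).

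**Figure D4:**
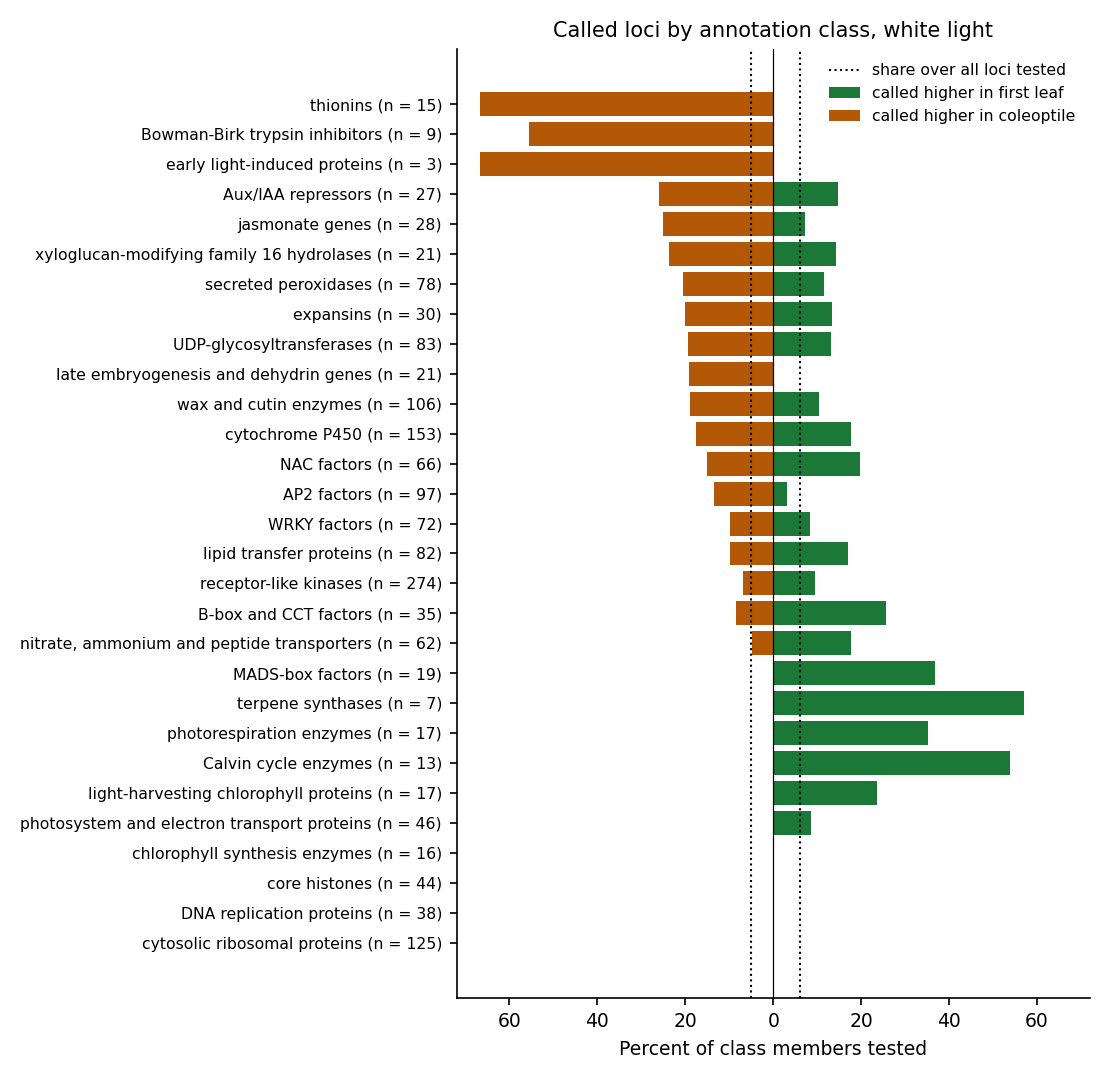
Percent of the members above 1 FPKM that were called higher in the first leaf (green, right) or in the coleoptile (brown, left) in 29 annotation classes, with the number of members tested; dotted lines mark the shares over all 20978 loci, 5.98% and 5.11%. Thionins and Bowman-Birk inhibitors reach to the left only, and Calvin cycle, terpene synthase and MADS-box classes to the right only.

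Transporters of nitrogen compounds had 11 loci called higher in the leaf and 3 in the coleoptile of 62 nitrate, ammonium and peptide transporters that passed (86 in the table). LOC_Os01g68510 stood at 11.01 and 13.5 FPKM in the first leaf against 1.23 and 0 FPKM in the coleoptile (log2 difference 3.15 ± 0.37, adjusted p = 0.00307). LOC_Os02g48570 stood at 12.3 and 15.99 FPKM in the first leaf against 1.16 and 0.473 FPKM in the coleoptile, a log2 difference of 3.07. Both are annotated as PTR2-type peptide transporters, a family that also carries nitrate. Water channels had 4 loci called in each direction of 23 (37 in the table). The aquaporin LOC_Os06g12310 reached 77.3 and 54.5 FPKM in the first leaf against 10.9 and 13.1 FPKM in the coleoptile (log2 difference 2.35 ± 0.28, adjusted p = 0.002995). LOC_Os02g57720, with the opposite sign, stood at 41.7 and 35.6 FPKM in the coleoptile against 9.76 and 7.96 FPKM in the first leaf, a log2 difference of -2.01. Cytochromes P450, oxygenases of many small molecules, had 27 called in each direction of 153 (350 in the table). LOC_Os04g48200, the most abundant, was at 992 and 883 FPKM in the coleoptile against 91.2 and 142 FPKM in the first leaf (log2 difference -3.03 ± 0.40, adjusted p = 0.00473). LOC_Os01g72740 measured 53.8 and 62.9 FPKM in the coleoptile against 1.93 and 1.96 FPKM in the first leaf (log2 difference -4.33 ± 0.21, adjusted p = 8.92e-05). LOC_Os01g36350, on the leaf side, stood at 12.7 and 13.99 FPKM in the first leaf against 0.0903 and 0.0503 FPKM in the coleoptile, a log2 difference of 3.74. None of the 3 overlapped between the organs. Glutathione S-transferases, which attach glutathione to toxic molecules, had 7 called higher in the leaf and 5 in the coleoptile of 61 (82 in the table), and UDP-glycosyltransferases, which attach sugars, 11 and 16 of 83 (169 in the table). LOC_Os04g25440, annotated as a cytokinin-O-glucosyltransferase, stood at 125 and 135 FPKM in the coleoptile against 17.9 and 17.3 FPKM in the first leaf (log2 difference -2.82 ± 0.22, adjusted p = 0.0006898). The glutathione S-transferase LOC_Os10g38710 stood at 104 and 100.5 FPKM in the first leaf against 18.2 and 11.9 FPKM in the coleoptile, a log2 difference of 2.71. Nitrogen transporter counts with single libraries left out were 3 to 17 in the leaf and 0 to 9 in the coleoptile, those of aquaporins 1 to 5 and 1 to 7, those of cytochromes P450 9 to 44 and 12 to 52, those of glutathione S-transferases 4 to 11 and 3 to 15 and those of UDP-glycosyltransferases 4 to 20 and 7 to 25.

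Auxin genes differed between the organs in both directions. Aux/IAA proteins repress auxin response until auxin triggers their breakdown, and 4 were called higher in the leaf and 7 higher in the coleoptile of 27 that passed (31 in the table). OsIAA12, LOC_Os03g43410, stood at 152 and 213 FPKM in the coleoptile against 16.7 and 12.1 FPKM in the first leaf (log2 difference -3.57 ± 0.24, adjusted p = 0.000366). OsIAA18, LOC_Os05g44810, reached 52.3 and 108 FPKM in the coleoptile against 8.697 and 8.37 FPKM in the first leaf (log2 difference -2.998 ± 0.35, adjusted p = 0.00278). OsIAA10, LOC_Os02g57250, on the leaf side, stood at 104 and 96.2 FPKM in the first leaf against 35.4 and 41.9 FPKM in the coleoptile, a log2 difference of 1.35. Small auxin-induced SAUR genes had 9 called higher in the leaf and 3 in the coleoptile of 38 (55 in the table). OsSAUR58, LOC_Os12g43110, was at 7.83 and 5.39 FPKM in the first leaf against 0.309 and 0.172 FPKM in the coleoptile (log2 difference 2.600 ± 0.24, adjusted p = 0.00141). OsSAUR33, LOC_Os08g35110, stood at 33.9 and 84.04 FPKM in the coleoptile against 5.33 and 3.79 FPKM in the first leaf, a log2 difference of -3.31. In coleoptile replicate 1, 15 of the 38 lay over 2-fold below replicate 2, and without replicate 1 the counts were 9 and 16, without replicate 2 7 and 4. GH3 enzymes join auxin to amino acids. OsGH3.2, LOC_Os01g55940, measured 14.4 and 3.23 FPKM in the coleoptile against 0.0995 and 0.385 FPKM in the first leaf (log2 difference -2.71 ± 0.54, adjusted p = 0.0214), on the coleoptile side. OsGH3.3, LOC_Os01g12160, stood at 6.03 and 9.02 FPKM in the first leaf against 2.14 and 0.834 FPKM in the coleoptile (log2 difference 1.81 ± 0.33, adjusted p = 0.01595), on the leaf side. Aux/IAA counts with single libraries left out were 1 to 6 in the leaf and 2 to 10 in the coleoptile, and those of SAUR genes 2 to 9 and 1 to 16. LOC_Os08g35110 was not called without white light first leaf replicate 2 (adjusted p = 0.0515). LOC_Os01g55940 was not called without either shaded coleoptile library or either white light first leaf library (adjusted p = 0.126). LOC_Os01g12160 was not called without either white light first leaf library (adjusted p = 0.114).

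Gibberellin is the hormone of stem and leaf elongation. Gibberellin 20 oxidase makes the precursors of the active hormone. The locus LOC_Os08g44590 of this class stood at 5.08 and 5.86 FPKM in the first leaf against 0.321 and 0.582 FPKM in the coleoptile, a log2 difference of 2.2. A second one, LOC_Os03g42130, stood at 15.8 and 10.6 FPKM in the first leaf against 4.62 and 5.08 FPKM in the coleoptile (log2 difference 1.25 ± 0.26, adjusted p = 0.0242). Gibberellin 2-beta-dioxygenases inactivate the hormone. Of these, LOC_Os04g44150 stood at 35.5 and 10.3 FPKM in the coleoptile against 4.43 and 4.04 FPKM in the first leaf, a log2 difference of -1.96. LOC_Os01g11150 stood at 19.97 and 11.5 FPKM in the coleoptile against 3.89 and 6.51 FPKM in the first leaf, a log2 difference of -1.42. Coleoptile replicate 1 was the highest of the 4 libraries at both inactivating loci, and 7 of 14 loci of the class lay over 2-fold higher in it than in replicate 2. Counts for the class were 2 higher in the leaf and 3 in the coleoptile, 2 and 3 without replicate 1, and 2 and 9 without replicate 2. The coleoptile count was 0 without any 1 of the 6 other libraries. Jasmonate synthesis and signalling genes had 2 called higher in the leaf and 7 higher in the coleoptile of 28 (53 in the table), with a median of -1.11. In shade the median was 0.11, with 2 called higher in the leaf and 2 in the coleoptile. Beside the lipoxygenase already described, the 12-oxophytodienoate reductase LOC_Os06g11260, an enzyme class of jasmonate synthesis, reached 33.6 and 5.58 FPKM in the coleoptile against 1.596 and 0.153 FPKM in the first leaf (log2 difference -3.12 ± 0.73, adjusted p = 0.0357). Coleoptile replicate 1 was over 2-fold above replicate 2 at 13 of the 28, and the coleoptile count was 7 without replicate 1 and 17 without replicate 2, and 1 without first leaf replicate 2. The lipoxygenase LOC_Os05g23880, on the leaf side, was at 11.4 and 9.23 FPKM in the first leaf against 2.73 and 1.78 FPKM in the coleoptile (log2 difference 1.805 ± 0.22, adjusted p = 0.00329). Of 12 abscisic acid and brassinosteroid loci that passed (19 in the table), 4 were called, all higher in the leaf, among them the abscisic stress-ripening locus LOC_Os01g73250 at 40.5 and 12.9 FPKM in the first leaf against 0.687 and 0.947 FPKM in the coleoptile (log2 difference 3.73 ± 0.53, adjusted p = 0.006001). Gibberellin enzyme counts with single libraries left out were 1 to 2 in the leaf and 0 to 9 in the coleoptile, those of jasmonate genes 1 to 3 and 1 to 17 and those of abscisic acid and brassinosteroid genes 3 to 5 and 0 to 4. LOC_Os03g42130 was not called without either white light first leaf library (adjusted p = 0.163). LOC_Os04g44150 and LOC_Os06g11260 were not called without either shaded coleoptile library, either shaded first leaf library or either white light first leaf library (highest adjusted p = 0.203). LOC_Os01g11150 was not called without any 1 library other than white light coleoptile replicate 2 (adjusted p = 0.186).

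Among transcription factors, MADS-box genes, of which many set the time of flowering and the identity of floral organs, had 7 loci called higher in the leaf and none in the coleoptile of 19 that passed (76 in the table). The leaf count was 1 without first leaf replicate 1, and 1 locus was called higher in the coleoptile without coleoptile replicate 1. OsMADS57, LOC_Os02g49840, stood at 5.53 and 7.56 FPKM in the first leaf against 1.22 and 0.604 FPKM in the coleoptile (log2 difference 1.99 ± 0.28, adjusted p = 0.00551). OsMADS18, LOC_Os07g41370, stood at 6.31 and 4.91 FPKM in the first leaf against 1.06 and 0.3696 FPKM in the coleoptile, a log2 difference of 1.97. OsMADS50, LOC_Os03g03100, which promotes flowering in rice, reached 6.13 and 4.89 FPKM in the first leaf against 1.74 and 1.24 FPKM in the coleoptile (log2 difference 1.39 ± 0.22, adjusted p = 0.00951). All 3 were low in both organs and separate between them. B-box and CCT factors, many of which act in light and day-length responses, had 9 called higher in the leaf and 3 in the coleoptile of 35 (42 in the table). The CCT motif gene LOC_Os05g51690 was at 67.6 and 60.1 FPKM in the first leaf against 18.1 and 21.01 FPKM in the coleoptile (log2 difference 1.66 ± 0.17, adjusted p = 0.00176). The B-box gene LOC_Os02g43170 stood at 114 and 90.7 FPKM in the coleoptile against 22.1 and 15.2 FPKM in the first leaf, a log2 difference of -2.41. The YABBY gene LOC_Os12g42610, of a family that sets the upper and lower faces of leaves in other plants, stood at 317 and 503 FPKM in the coleoptile against 56.2 and 54.01 FPKM in the first leaf, a log2 difference of -2.83. A second YABBY gene, LOC_Os03g11600, measured 7.05 and 3.804 FPKM in the first leaf against 1.25 and 0 FPKM in the coleoptile (log2 difference 2.05 ± 0.50, adjusted p = 0.042997). Homeobox factors had 5 called higher in the leaf and 6 in the coleoptile of 66 (96 in the table). Those shares were 7.58% and 9.09%, beside 5.98% and 5.11% over all loci. LOC_Os03g03260 stood at 7.73 and 9.48 FPKM in the first leaf against 0.879 and 0.2703 FPKM in the coleoptile, a log2 difference of 2.63. The leucine zipper type LOC_Os10g23090 stood at 11.6 and 24.8 FPKM in the coleoptile against 4.61 and 4.53 FPKM in the first leaf, a log2 difference of -1.696. MADS-box counts with single libraries left out were 1 to 7 in the leaf and 0 to 1 in the coleoptile, those of B-box and CCT factors 1 to 10 and 1 to 5 and those of homeobox factors 2 to 11 and 0 to 9. LOC_Os02g49840 was not called without white light first leaf replicate 2 (adjusted p = 0.0519). LOC_Os07g41370 and LOC_Os03g03100 were not called without white light first leaf replicate 1 (highest adjusted p = 0.0862). LOC_Os03g11600 was not called without any 1 library other than white light coleoptile replicate 1 (adjusted p = 0.234). LOC_Os10g23090 was not called without either white light first leaf library (adjusted p = 0.0967).

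NAC factors had 13 called higher in the leaf and 10 in the coleoptile of 66 that passed (124 in the table), MYB factors 12 and 13 of 118 (169 in the table), and helix-loop-helix factors 5 and 12 of 76 (120 in the table). The NAC factor LOC_Os09g33490 stood at 26.6 and 31.9 FPKM in the first leaf against 3.89 and 2.32 FPKM in the coleoptile (log2 difference 2.901 ± 0.27, adjusted p = 0.00125). The NAC factor LOC_Os02g36880 stood at 107 and 90.2 FPKM in the coleoptile against 13.9 and 10.6 FPKM in the first leaf, a log2 difference of -2.92. The MYB factor LOC_Os04g50770 reached 16.8 and 12.9 FPKM in the first leaf against 1.74 and 1.31 FPKM in the coleoptile (log2 difference 2.64 ± 0.23, adjusted p = 0.000957). The MYB factor LOC_Os12g37690 stood at 25.02 and 18.6 FPKM in the coleoptile against 2.56 and 1.902 FPKM in the first leaf, a log2 difference of -2.81. Each organ thus had called members of both families. AP2 factors, a family that includes the ethylene response factors, had 3 called higher in the leaf and 13 in the coleoptile of 97 (156 in the table), and WRKY factors, which act in defence, 6 and 7 of 72 (105 in the table). The shares were 3.09% and 13.4% for AP2 and 8.33% and 9.72% for WRKY factors, beside 5.98% and 5.11% over all loci. The AP2 factor LOC_Os07g47790 was at 38.97 and 10.6 FPKM in the coleoptile against 1.65 and 0.742 FPKM in the first leaf (log2 difference -3.32 ± 0.54, adjusted p = 0.00951). WRKY117, LOC_Os08g09840, measured 7.11 and 6.74 FPKM in the first leaf against 0.354 and 0.573 FPKM in the coleoptile (log2 difference 2.44 ± 0.26, adjusted p = 0.00227). These 2 families moved with coleoptile replicate 1, which was over 2-fold above replicate 2 at 39 of the 97 AP2 and 28 of the 72 WRKY loci. Without replicate 1, 11 AP2 and 6 WRKY loci were called higher in the coleoptile, and without replicate 2, 34 and 29. NAC counts with single libraries left out were 4 to 15 in the leaf and 5 to 18 in the coleoptile, those of MYB factors 5 to 22 and 2 to 19, those of helix-loop-helix factors 2 to 10 and 5 to 22, those of AP2 factors 1 to 6 and 1 to 34 and those of WRKY factors 2 to 11 and 2 to 29. LOC_Os07g47790 was not called without white light first leaf replicate 2 (adjusted p = 0.0729).

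Late embryogenesis abundant proteins and dehydrins, which protect cells that lose water, had 4 of 21 loci (42 in the table) called higher in the coleoptile and none in the leaf, with a median of -1.33 (-0.32 without coleoptile replicate 1 and -3.04 without replicate 2). LOC_Os05g46480, of group 3, stood at 249.8 and 75.1 FPKM in the coleoptile against 0.921 and 1.06 FPKM in the first leaf (log2 difference -6.12 ± 0.51, adjusted p = 0.000845). LOC_Os01g50910, also of group 3, reached 486 and 39.02 FPKM in the coleoptile against 6.43 and 2.43 FPKM in the first leaf (log2 difference -4.79 ± 1.01, adjusted p = 0.0257), with its coleoptile libraries far apart. Replicate 1 was over 2-fold above replicate 2 at 17 of the 21, and the coleoptile count was 4 without replicate 1 and 16 without replicate 2, and 1 without either white light first leaf library. Without replicate 1, 2 loci were called higher in the leaf. Of the 21 late embryogenesis and dehydrin loci, 8 were called higher in the coleoptile in shade and none in the leaf. Their shade median was -2.62, and the 4 called in white light were among the 8. Early light-induced proteins, which bind chlorophyll and protect it under strong light, had 3 of 6 loci above the minimum and 2 called, higher in the coleoptile. LOC_Os01g14410 was at 769 and 795 FPKM in the coleoptile against 311 and 179 FPKM in the first leaf (log2 difference -1.72 ± 0.31, adjusted p = 0.0151). LOC_Os07g08150 stood at 368 and 296 FPKM in the coleoptile against 132 and 109 FPKM in the first leaf, a log2 difference of -1.45. Both lay on the opposite side from the called light-harvesting loci. Universal stress proteins had 2 called higher in the leaf and 5 in the coleoptile of 22 (27 in the table). LOC_Os10g30150 stood at 19.02 and 10.5 FPKM in the coleoptile against 0.488 and 0 FPKM in the first leaf, a log2 difference of -3.64. Heat shock proteins and heat stress factors had 9 called higher in the leaf and 2 in the coleoptile of 113 (158 in the table). Those shares were 7.96% and 1.77%, beside 5.98% and 5.11% over all loci. The small heat shock protein LOC_Os01g04350, a chaperone, measured 377 and 382 FPKM in the first leaf against 173 and 65.1 FPKM in the coleoptile (log2 difference 1.83 ± 0.44, adjusted p = 0.0413). The DnaJ protein LOC_Os01g53020 stood at 18.99 and 15.8 FPKM in the first leaf against 3.25 and 3.76 FPKM in the coleoptile, a log2 difference of 2.03. Late embryogenesis and dehydrin counts with single libraries left out were 0 to 2 in the leaf and 1 to 16 in the coleoptile, those of early light-induced proteins 0 and 0 to 2, those of universal stress proteins 0 to 2 and 3 to 7 and those of heat shock genes 1 to 13 and 0 to 8. LOC_Os01g50910 and LOC_Os01g04350 were not called without either shaded coleoptile library, either shaded first leaf library or either white light first leaf library (highest adjusted p = 0.182). LOC_Os01g14410 was not called without white light first leaf replicate 2 (adjusted p = 0.0937). LOC_Os07g08150 was not called without either white light first leaf library (adjusted p = 0.0848).

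Proteases and signalling genes had members on both sides. The cysteine protease LOC_Os03g54130 stood at 33.2 and 13.3 FPKM in the first leaf against 0.226 and 0.0628 FPKM in the coleoptile (log2 difference 4.27 ± 0.40, adjusted p = 0.001398). The vacuolar processing enzyme LOC_Os01g37910, a protease that matures vacuolar proteins, reached 127 and 80.4 FPKM in the first leaf against 15.1 and 19.5 FPKM in the coleoptile (log2 difference 2.49 ± 0.24, adjusted p = 0.00153). Oryzain beta, LOC_Os04g57440, a cysteine protease of rice, stood at 319 and 344 FPKM in the coleoptile against 74.3 and 73.3 FPKM in the first leaf, a log2 difference of -2.15. The class had 4 called in each direction of 63 (124 in the table). That is 6.35% each way, near the 5.98% and 5.11% of all loci. Receptor-like kinases, which sense signals at the cell surface, had 26 called higher in the leaf and 19 in the coleoptile of 274 (626 in the table). Those shares were 9.49% and 6.93%. The receptor kinase LOC_Os02g40240 was at 43.4 and 40.2 FPKM in the first leaf against 1.42 and 0.613 FPKM in the coleoptile (log2 difference 4.44 ± 0.28, adjusted p = 0.000245). The DUF26 kinase LOC_Os07g35340 stood at 27.8 and 24.05 FPKM in the coleoptile against 2.74 and 5.12 FPKM in the first leaf, a log2 difference of -2.49. F-box proteins, which pick proteins for breakdown, had 4 and 9 called of 288 (745 in the table), under the shares of all loci in both directions. Protease class counts with single libraries left out were 4 to 13 in the leaf and 2 to 7 in the coleoptile, those of receptor-like kinases 7 to 45 and 4 to 55 and those of F-box proteins 0 to 13 and 2 to 24.

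Some loci were found in one organ at an interpretable level and close to 0 in the other. By the bounds of at least 5 FPKM in both libraries of one organ and under 0.5 FPKM in both of the other, 34 loci were of the leaf kind and 47 of the coleoptile kind. In shade the same bounds held for 11 of the 34 and 30 of the 47. Beyond those already described, the leaf kind included RALFL28, LOC_Os06g29730, a signal peptide of the rapid alkalinization factor family, at 22.1 and 15.5 FPKM in the first leaf against 0.215 and 0 FPKM in the coleoptile (log2 difference 4.15 ± 0.24, adjusted p = 0.000169), and the carboxyl-terminal peptidase LOC_Os06g16640, listed at 0 in both coleoptile libraries and at 17.8 and 18.3 FPKM in the leaf (log2 difference 4.25 ± 0.33, adjusted p = 0.000622). On the coleoptile side, LOC_Os01g24700, an expressed protein next to the abundant lectin, stood at 684 and 2023 FPKM in the coleoptile against 0 and 0.423 FPKM in the first leaf (log2 difference -9.95 ± 0.45, adjusted p = 7.66e-05). A value of 0 is only what the table lists, and 18 loci whose median reached 10 FPKM had a 0 in one library.

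The same comparison in the 4 shade libraries, which share no sample with the white light comparison but share its estimate of spread, called 2090 loci (9.96%), 1167 higher in the leaf (5.56%) and 923 higher in the coleoptile (4.4%). Of the 1254 loci called higher in the leaf in white light, 809 were called the same way in shade, which is 64.5% of the white light list and 69.3% of the shade list. Of the 1073 called higher in the coleoptile, 645 were called again, 60.1% and 69.9% of the lists. The sign was the same in shade at 1226 and 984 loci. The leading wall protein LOC_Os02g37490 stood at 2298 and 2189 FPKM in the shaded coleoptile and 0 and 0 FPKM in the shaded first leaf, and the cupin locus LOC_Os08g13440 at 0.778 and 1.78 FPKM in the shaded coleoptile and 158 and 172 FPKM in the shaded first leaf. The median tissue difference of some classes was below 0 in white light and above 0 in shade, at -1.10 and 0.09 for gibberellin enzymes, -0.49 and 0.200 for AP2 factors and -0.30 and 0.44 for WRKY factors, changes that were not tested. The white light medians depended on the coleoptile library used. In the same order they were -0.64, -0.08 and -0.07 without coleoptile replicate 1. Without coleoptile replicate 2 they were -1.63, -0.80 and -0.61. Root markers stood apart in the shade set, where RCc3, LOC_Os02g44310, was at 29.96 and 136 FPKM in the shaded coleoptile and 6.48 and 5.37 FPKM in the shaded first leaf, and the summed root markers reached 41.6 and 142 FPKM in the shaded coleoptile and 19.4 and 29.9 FPKM in the shaded first leaf. Their part in the shade comparison was not tested. Some coleoptile loci were less far apart in shade. The helix-loop-helix factor LOC_Os01g56690 stood at 60.7 and 10.5 FPKM in the coleoptile against 0.709 and 0.681 FPKM in the first leaf in white light (log2 difference -3.97 ± 0.68, adjusted p = 0.0118) and at 0.113 and 0.386 FPKM in the shaded coleoptile and 0.574 and 0.301 FPKM in the shaded first leaf in shade (log2 difference 0.20, adjusted p = 0.901). Tested directly, the difference between the shade and the white light comparison passed the adjusted threshold at none of the loci (0.0%), while 1156 had an unadjusted limma p under 0.05, against 1049 that chance gives at that threshold. That count of 0 became 31 without coleoptile white light replicate 1 and 883 without replicate 2. The shade count was 4116 or 4108 without coleoptile white light replicate 1 or 2, 646 or 505 without shaded coleoptile replicate 1 or 2, and 792 or 612 without shaded first leaf replicate 1 or 2. LOC_Os01g56690 was not called without either white light first leaf library (adjusted p = 0.0741).

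**Figure D5:**
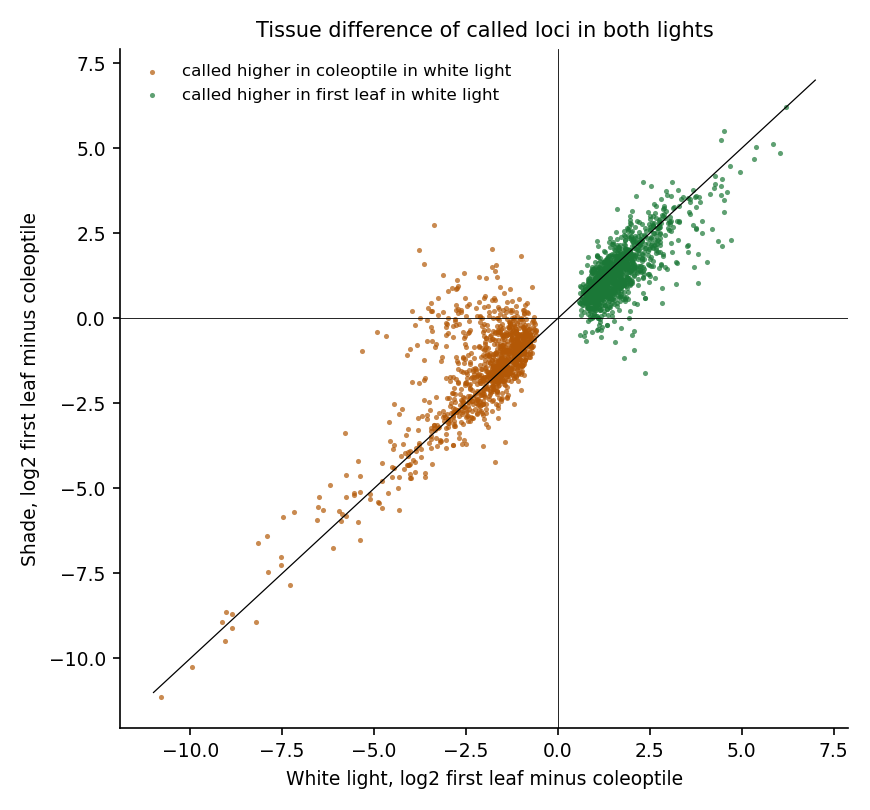
Log2 difference, first leaf minus coleoptile, in white light (horizontal) and in shade (vertical) for the 2327 loci called in white light; the line marks equal differences. Most points lie near the line in the same quadrant, with 1226 of 1254 leaf loci and 984 of 1073 coleoptile loci on the same side of 0 in both lights.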

How the data were processed

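The authors deposited 1 table of FPKM values for 8 RNA-seq libraries, 55801 loci and a text annotation for each. The submitters' processing notes name Cufflinks, Cuffnorm and Cuffdiff 2.2.1, TopHat2 2.0.14, FastQC 0.11.2, bcl2fastq 2.16.0.10, Bowtie2 2.2.3 and Trim Galore 0.3.7, with no role for each. Which genome build and annotation release were used is not given in the sources used here, so no coordinates are printed and names are those of the table. FPKM hold no read depth, so no counting interval is given.

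Loci were kept where the 4 white light libraries averaged at least 1 FPKM (20978). log2(FPKM + 1) of all 8 libraries was fitted with limma 3.58.1 (R 4.3.3; 4 group means, eBayes with trend), and p-values were adjusted over all loci tested. A log2 difference is on that scale and understates the change of low loci. The steps were tested on simulated data. Python 3.11.15, pandas 2.3.3 and numpy 2.4.6 made the tables.

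Classes are keywords in the annotation text. The members and lists were chosen with earlier results of these data known, some exclusion words were adjusted to the annotation text, and 8 lists (thionins, Bowman-Birk inhibitors, jacalin-like lectins, BURP proteins, chitinases, terpene synthases, family 17 hydrolases, cupins) were added after the values were seen. Loci named in the text were taken from those with the 10 largest called differences each way that name a function, per class up to 2 called each way and the most abundant, the 5 most abundant of each organ, and the 5 highest present in one organ alone. LOC_Os01g04350, LOC_Os01g53020, LOC_Os02g47020 and LOC_Os03g03100 fall outside this rule and were chosen after their values were seen, while LOC_Os02g44310 and LOC_Os03g01700 are root markers. LOC_Os02g05830 is a green tissue marker, named for its opposite sign. Alternatives were the pseudocount, the filter, the scaling, the libraries in the fit, single libraries left out and the replicate number as a block.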

Additional observations from a re-analysis of the deposited data

Results flagged for a closer look

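At 4 loci the tissue difference pointed opposite ways in the 2 lights, with every library of one organ on one side in white light and on the other side in shade. The small heat shock protein LOC_Os06g14240, a chaperone, was at 8.78 and 7.08 FPKM in the first leaf against 0.995 and 1.25 FPKM in the coleoptile in white light (log2 difference 2.07) and at 1.91 and 0.819 FPKM in the shaded coleoptile and 0.174 and 0.213 FPKM in the shaded first leaf (-0.95), so that the difference changed by -3.02 from white light to shade (limma, adjusted p = 0.235). The heat stress transcription factor LOC_Os03g06630, of the family that switches on chaperone genes, was at 29.3 and 18.2 FPKM in the first leaf against 3.66 and 6.11 FPKM in the coleoptile (2.07) and at 3.205 and 2.43 FPKM in the shaded coleoptile and 1.498 and 2.42 FPKM in the shaded first leaf (-0.38), a change of -2.45 (adjusted p = 0.364). In both, the shaded leaf was the low group, but at LOC_Os03g06630 the organs nearly met in shade. Replicate 2 was at 2.42 FPKM in the shaded first leaf and 2.43 FPKM in the shaded coleoptile. The universal stress protein LOC_Os03g19270 was at 45.7 and 19.7 FPKM in the coleoptile against 2.43 and 3.51 FPKM in the first leaf (-2.98) and at 6.42 and 5.08 FPKM in the shaded coleoptile and 11.5 and 9.98 FPKM in the shaded first leaf (0.80), a change of 3.79 (adjusted p = 0.235). WRKY28, LOC_Os06g44010, was at 174 and 25.99 FPKM in the coleoptile against 11.2 and 2.65 FPKM in the first leaf (-3.36) and at 0.697 and 0.6299 FPKM in the shaded coleoptile and 8.67 and 11.9 FPKM in the shaded first leaf (2.75), a change of 6.11 (adjusted p = 0.415). At these last loci the white light coleoptile was the high group, and its replicate 1 was the highest library. None of the 4 changes passed the adjusted threshold, and they were picked for their opposite signs from the loci of this kind, 17 called higher in the leaf and 43 higher in the coleoptile in white light. LOC_Os06g14240 and LOC_Os03g06630 were not called without white light first leaf replicate 1 (highest adjusted p = 0.0678). LOC_Os06g44010 was not called without any 1 library other than white light coleoptile replicate 2 (adjusted p = 0.264).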

How the results depend on the processing

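With 2 libraries a group, the number of calls in white light rested on how the spread was estimated. It was 2327 in the reported fit, between 1725 and 2570 with another pseudocount, filter or scaling, 539 with the white light libraries alone, and between 718 and 4049 with 1 library left out. Higher-in-leaf loci made up 51.9% to 56.1% of calls under every pseudocount, filter and scaling tried, but 43.8% without coleoptile replicate 2 and 47.2% without first leaf replicate 1. In shade the count was 2090, between 1516 and 2252 under those settings, and between 505 and 4116 with 1 library left out. The test of the difference between lights called 0 loci in the reported fit, 39 with no filter on low values, and 0 to 883 with 1 library left out. Read depth is not given, so counting error at low FPKM could not be set beside these values.

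No pairing by replicate number was seen: deviations of same-numbered libraries correlated at 0.068 in white light and at -0.168 in shade. With 2 libraries a group, these values cannot exclude that samples were paired. With replicate number as a block, 2028 loci were called in white light, 1753 in shade and 0 for the difference. With the shaded leaf numbers crossed, a setting chosen after seeing the data, 1932 were called in shade.

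Of 137 called loci named in the text, 86 stayed called whichever single library was left out. None changed sign under any setting. With white light libraries alone 49 of the 137 fell short of the threshold, with no filter 21, and with the replicate block 5. Loci named without a call changed sign near 0 in some settings. With 1 library left out the difference ran from -0.49 to 0.79 for LOC_Os01g17170, from -0.62 to 0.30 for LOC_Os08g13920, from -0.52 to 0.36 for LOC_Os02g44310, from -0.32 to 0.24 for LOC_Os11g02424 and from -0.11 to 0.032 for LOC_Os05g08370. The last was at 0.19 after quantile normalization. The cause of these changes was not tested.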

Other observations

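Further gene groups had members on both sides. Cupin domain proteins and germins, a family of secreted barrel-shaped proteins, had 5 loci called in each direction of 30 that passed (59 in the table). LOC_Os08g08970 reached 1232 and 602 FPKM in the coleoptile against 6.43 and 10.8 FPKM in the first leaf (log2 difference -6.52 ± 0.40, adjusted p = 0.000238), the mirror of the cupin locus that led the leaf. Genes with the secreted BURP domain had 2 called higher in the leaf and 3 in the coleoptile of 8 (16 in the table), and LOC_Os11g06980 reached 127 and 102 FPKM in the first leaf against 13.1 and 1.498 FPKM in the coleoptile (log2 difference 4.27 ± 0.71, adjusted p = 0.0109), opposite to the abundant coleoptile member. Cytokinin enzymes and two-component response regulators, which carry the cytokinin signal, had 6 called higher in the leaf and 9 in the coleoptile of 40 (85 in the table). The bZIP factor LOC_Os06g39960 was at 19.99 and 34.8 FPKM in the coleoptile against 3.21 and 2.896 FPKM in the first leaf (log2 difference -2.76 ± 0.32, adjusted p = 0.00296), 1 of 3 called higher in the coleoptile beside 2 in the leaf among 43 (58 in the table). Those bZIP shares, 6.98% in the coleoptile and 4.65% in the leaf, were near the 5.11% and 5.98% of all loci. An ethylene receptor, LOC_Os02g57530, was at 8.04 and 8.49 FPKM in the first leaf against 2.73 and 3.66 FPKM in the coleoptile (log2 difference 1.15 ± 0.20, adjusted p = 0.0121), and an ethylene-forming oxidase, LOC_Os03g63900, at 57.5 and 87.3 FPKM in the coleoptile against 35.04 and 27.02 FPKM in the first leaf (log2 difference -1.18 ± 0.24, adjusted p = 0.0235), the only called loci of 27 (39 in the table). The ethylene shares, 3.70% in each direction, were under the 5.98% and 5.11% of all loci. Of 8 gibberellin-regulated GASR loci that passed (11 in the table), none was called by limma and 0 had an unadjusted p under 0.05. Cupin and germin counts with single libraries left out were 2 to 5 in the leaf and 2 to 7 in the coleoptile, those of BURP genes 0 to 3 and 3 to 4, those of cytokinin genes 0 to 8 and 3 to 12, those of bZIP factors 1 to 4 and 1 to 8 and those of ethylene genes 0 to 5 and 0 to 7. LOC_Os11g06980, LOC_Os02g57530 and LOC_Os03g63900 were not called without either white light first leaf library (highest adjusted p = 0.1595).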
